A study of Mus musculus with 12 samples.

Results

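A set of 6 ion channel and pump genes that serve iodide uptake by the thyroid follicular cell was followed in thyroid RNA of 12 mice. They were *Kcnq1*, *Kcne2*, *Ano1*, *Cftr*, *Clcn5* and *Atp1b1*, taken by gene name, and each name matched 1 row, so 6 of the 55536 genes in the tables were members. The affected group was 5 C57BL/6NTac (B6NTac) mice from Taconic with thyroid dysplasia (code TCW). By the study's account affected mice carry a LINE-1 insertion in an intron of *Tg*. The unaffected group was 6 C57BL/6NCrl (B6NCrl) mice from Charles River (code CRW) and 1 unaffected knockout mouse from Taconic (code TCK, replicate 14), whose knocked-out gene is not named in the sources used here. The labels give no LINE-1 genotype, sex, age or treatment for these mice. Apart from replicate 14, colony and phenotype cannot be told apart. Each library was 1 mouse.

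Iodide enters the follicular cell across its basolateral membrane with sodium, through the symporter encoded by *Slc5a5*. The sodium-potassium ATPase, of which *Atp1b1* encodes a beta subunit, maintains the sodium gradient for this step. KCNQ1 with its accessory subunit KCNE2 forms a potassium channel that stays open at rest, and loss of KCNE2 in mice impairs iodide accumulation. At the apical membrane iodide passes into the follicle lumen, where it is bound to thyroglobulin, and pendrin (*Slc26a4*) and the calcium-activated anion channel ANO1 are candidate routes. CFTR is a cAMP-regulated chloride channel, and *Clcn5* encodes a chloride-proton exchanger of endosomes.

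The libraries held between 11434901 and 23319948 counts, with the lowest total in unaffected replicate 14. *Tg* took 10.7% to 24.3% of counts in affected mice and 21.6% to 29.6% in unaffected mice, so the thyroid marker was abundant in every library. Other tissue was present in several of them. Affected replicates 1 and 6 had the lowest summed lineage factors (*Pax8*, *Nkx2-1*, *Foxe1* and *Hhex*), at 342 and 363 CPM (counts scaled to library size). Unaffected replicates 14 and 21 held 295 and 299 CPM of 8 T cell markers, against 3.08 to 52.5 CPM in the other 10 mice. Affected replicate 4, the highest of the 12 mice for *Ano1*, *Cftr*, *Clcn5* and *Atp1b1*, held 46.4 CPM of parathyroid markers, against 3618 to 9420 CPM in the other mice. Affected replicate 1 held 2984 CPM of adipose markers, and affected replicate 3 held 2138 CPM of airway and 386 CPM of cartilage markers. Skeletal muscle markers reached 33900 CPM in affected replicate 6 and ran from 14.32 to 1577 CPM in the other affected mice. Unaffected replicates 21, 22, 23 and 25 held 6430, 14770, 5062 and 11890 CPM of them. The other unaffected mice held 1.955 to 699.8 CPM. The airway list summed to 35110 CPM in unaffected replicate 23 through 1 gene, *Muc5b*, with 714370 counts. In that library *Scgb1a1*, *Scgb3a2* and *Reg3g* of the same list had 0 counts. *Cyp2f2*, *Bpifa1*, *Foxj1* and *Sftpd* of the list had 454, 46, 15 and 2 counts there, and 454 was the highest unaffected *Cyp2f2* count. The part of these tissues in the results was not tested. In such bulk tissue, fewer follicular cells and less RNA per cell cannot be told apart.

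Per length of transcript, the 6 genes spanned several orders of magnitude. *Atp1b1* was highest, with 157 to 391 FPKM (counted fragments scaled to transcript length and library size). *Ano1* and *Clcn5* followed, with medians over the 12 mice of 10.9 and 10.6 FPKM. *Cftr* and *Kcnq1* came next, with medians of 2.37 and 2.33 FPKM, and *Kcne2* was lowest, with a median of 0.0955 FPKM. *Ano1* lay above *Clcn5* in 3 of 5 affected and 3 of 7 unaffected mice, and the ranges of the pair overlapped in each group. *Cftr* lay above *Kcnq1* in 4 of 5 affected mice and in 2 of 7 unaffected mice, with medians of 2.46 and 1.87 FPKM in affected and 2.27 and 2.74 FPKM in unaffected mice, and the ranges again overlapped in each group. The other neighbours in the order kept their places in 12 of 12 mice. For comparison, the symporter gene *Slc5a5* stood at 1.99 to 9.34 FPKM.

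**Figure D1:**
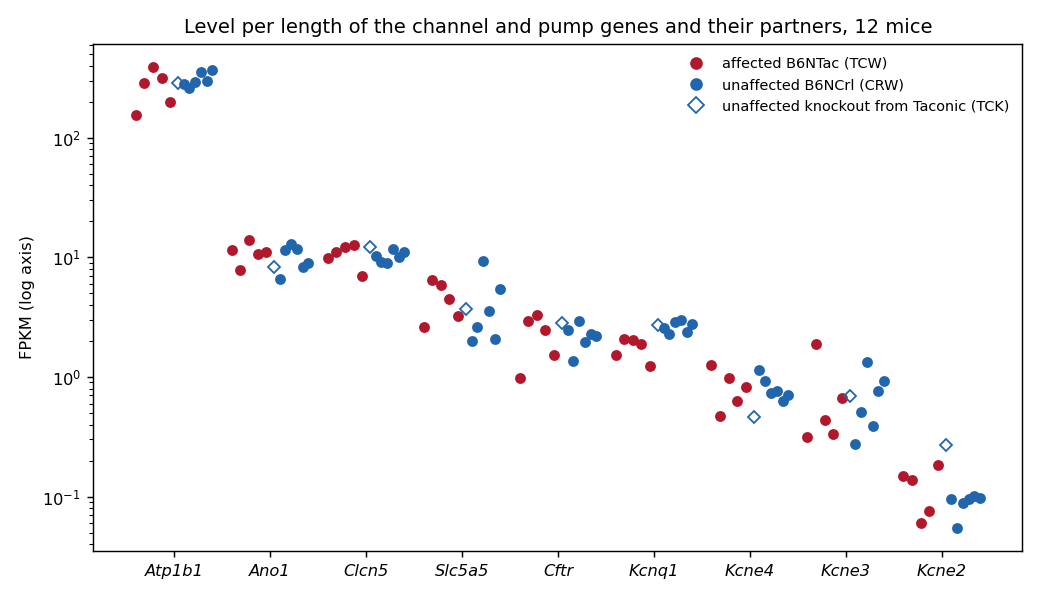
Level per length (FPKM, log axis) of the 6 members and of *Slc5a5*, *Kcne3* and *Kcne4*, with 1 point per mouse. *Atp1b1* stands at the top, *Ano1* and *Clcn5* overlap, *Cftr* and *Kcnq1* overlap, and *Kcne2* is lowest at 0.0547 to 0.268 FPKM.

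Of the 6 members, 5 had enough counts to be tested, and 1 of these passed an adjusted p of 0.05. It was *Kcnq1*, which was lower in affected mice. Scaled to the thyroid lineage factors, which moved the median of all genes to 0.68, its log2 fold change was 0.09, or -0.59 relative to that median. Among all 19661 genes tested, 13.7% passed, with 7.63% higher and 6.10% lower in affected mice, against which the 1 of 5 members is to be read. The median log2 fold change of the 5 tested members was -0.06, beside 0.01 over all genes tested. Log2 fold changes here and in what follows are affected minus unaffected, fitted in edgeR with its quasi-likelihood test, and p was adjusted by Benjamini-Hochberg over every gene tested.

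**Figure D2:**
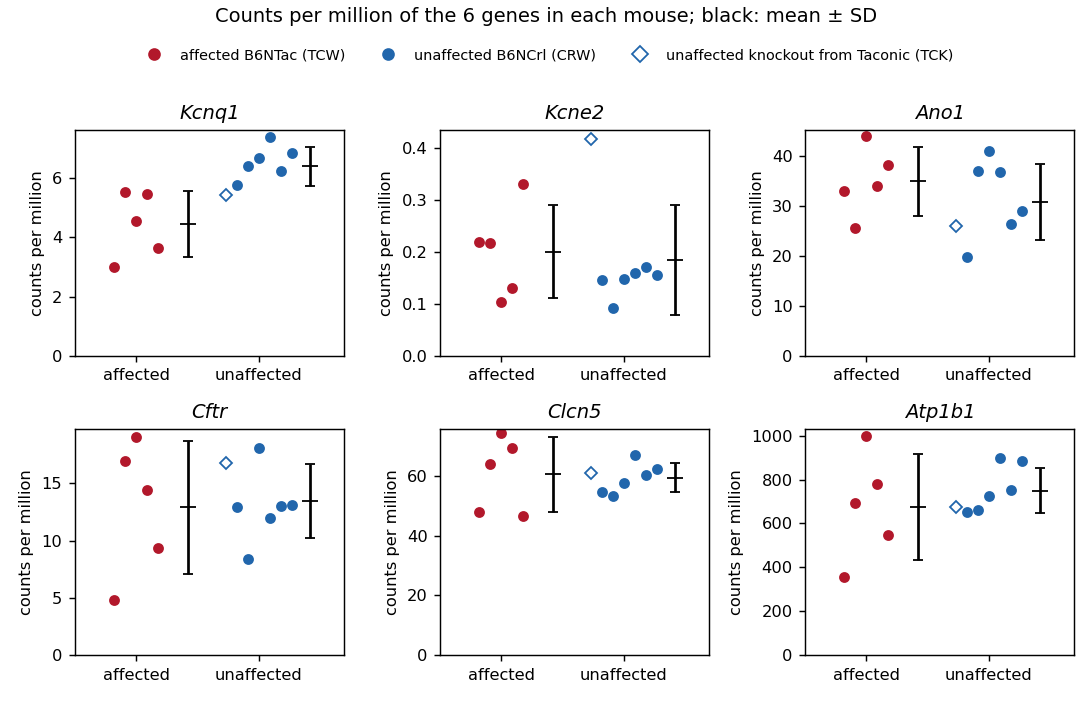
CPM of the 6 genes in each mouse (linear axes from 0), with the mean and SD of 5 affected and 7 unaffected mice. *Kcnq1* is lower in affected mice, with replicate 14 (open diamond) among the affected values, and the groups overlap for the other 5 genes.

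*Kcnq1* (ENSMUSG00000009545) lies on the plus strand of chromosome 7, from 143106362 to 143427042 in GRCm38, and encodes the pore-forming subunit of the potassium channel. In affected replicates 1, 3, 4, 5 and 6 its level was 3.01, 5.54, 4.54, 5.48 and 3.63 CPM. In unaffected mice the lowest was 5.42, the median 6.41 and the highest 7.40 CPM. Thus 3 of 5 affected mice lay below every unaffected mouse, and 6 of 7 unaffected mice lay above every affected mouse. The lowest unaffected value belonged to replicate 14, the mouse from Taconic, which fell between affected replicates 4 and 5.

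The group means of *Kcnq1* were 4.44 ± 1.12 CPM (SD, n = 5) in affected and 6.39 ± 0.667 CPM (SD, n = 7) in unaffected mice. Their log2 fold change was -0.52 (SE 0.16), a fold of 0.695, with an adjusted p of 0.0419 (edgeR's quasi-likelihood test). In FPKM the affected mice stood at 1.24 to 2.07 and the unaffected mice at 2.30 to 2.98, with no overlap, as for 5.94% of genes tested. Replicate 14 then stood at 2.74 FPKM, among the B6NCrl mice. The gene rested on 65 to 140 counts per mouse, and the call was close to the threshold. Leaving out each mouse in turn gave log2 fold changes from -0.62 to -0.41 and adjusted p from 0.0335 to 0.0856, and the call was lost in 9 of 12 fits. It was kept without affected replicate 3, affected replicate 5 or unaffected replicate 14. The fit without replicate 14, which is the same as taking B6NCrl mice as the sole controls, gave a log2 fold change of -0.56. Its adjusted p was 0.0453 (edgeR's quasi-likelihood test).

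**Figure D3:**
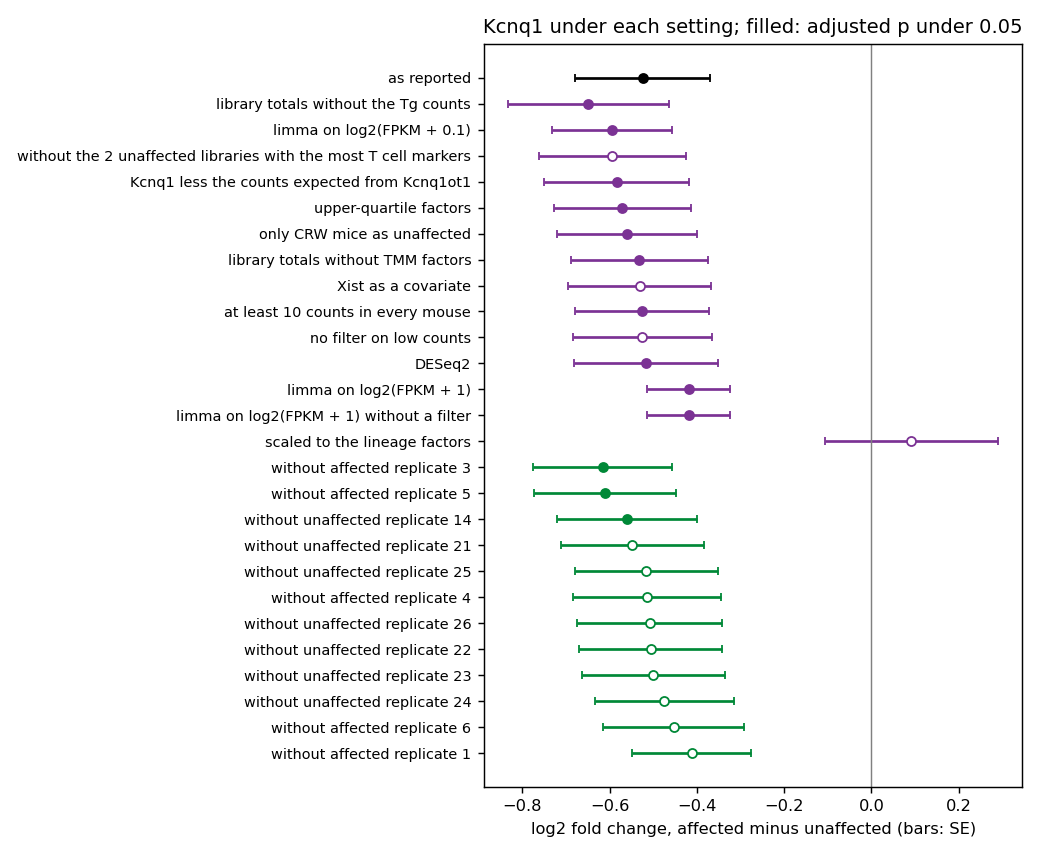
Log2 fold change of *Kcnq1* with its SE as reported (black), under other processing (purple) and with 1 mouse left out (green), where filled points have an adjusted p under 0.05. The estimate runs from -0.65 to -0.41 except when libraries are scaled to the lineage factors, where it is 0.09 (-0.59 relative to the median of all genes, which moved to 0.68), and 9 of the 12 green points are open.

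The thyroid lineage factors were compared in the same mice. *Pax8*, a transcription factor that marks follicular cells, was lower in affected mice (log2 fold change -0.81, SE 0.19, adjusted p = 0.0158 in edgeR's quasi-likelihood test). *Nkx2-1*, *Foxe1* and *Hhex* had log2 fold changes of -0.41, -0.61 and -0.41 and did not pass. *Foxe1* passed in 3 of 13 other settings, among them DESeq2 (adjusted p = 0.0295), and without affected replicate 4 *Foxe1* and *Hhex* passed with adjusted p of 0.0105 and 0.0348 in edgeR's quasi-likelihood test. The lineage factors summed to 342 to 808 CPM in affected and 708 to 986 CPM in unaffected mice, and none was at 0. Affected replicates 1 and 6 were the 2 lowest of 12 mice for *Kcnq1*, *Pax8*, *Atp1b1* and *Clcn5*. Among the affected mice *Pax8* was highest in replicate 4 and *Kcnq1* in replicate 3. At the same time 3 of 7 macrophage markers (152 to 243 CPM summed in affected, 73.4 to 182 CPM in unaffected mice) and 3 of 5 fibroblast markers (543 to 817 against 373 to 534 CPM) were higher in affected mice, and no marker of either list was at 0. Among the other marker lists, 2 of 5 tested airway, 1 of 4 tested squamous and 1 of 6 tested Schwann cell markers were higher. Of the 5 endothelial markers, 1 was lower. Over all genes tested, 7.63% were higher and 6.10% were lower in affected mice. The part of tissue makeup in the *Kcnq1* result was not tested.

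*Kcnq1* also shares sequence with an antisense gene. *Kcnq1ot1*, a long noncoding RNA of the imprinted domain, is transcribed from the opposite strand as 1 exon of 93092 bases (chromosome 7, 143203458 to 143296549). Exon 11 of the 16 exons of transcript Kcnq1-201 lies within it, at chr7:143261256-143261376 on the plus strand. These 121 bases are positions 1391 to 1511 of the 2004-base coding sequence. The exon is printed because reads lying wholly within it cannot be assigned to either gene without the strand. Reads that cross its splice junctions can be assigned to *Kcnq1*. The sources used here do not say whether counting used the strand. Capitals mark the shared exon, and the 15 lower case bases on each side come from the neighbouring exons of the spliced transcript (5′ to 3′, GENCODE M21 transcript on GRCm38).
Kcnq1-201, exon 11: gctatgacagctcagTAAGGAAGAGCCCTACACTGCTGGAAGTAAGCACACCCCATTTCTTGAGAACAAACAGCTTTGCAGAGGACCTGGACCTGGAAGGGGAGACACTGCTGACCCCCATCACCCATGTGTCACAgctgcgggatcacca

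If *Kcnq1ot1* reads fell evenly along its exon, a number of them would fall on these 121 bases that equals 10.7% to 15.5% of the *Kcnq1* count in affected and 7.51% to 11.3% in unaffected mice. *Kcnq1ot1* itself stood at 418 ± 56.3 CPM (SD, n = 5) in affected and 427 ± 29.4 CPM (SD, n = 7) in unaffected mice, and its log2 fold change was -0.03 (SE 0.09, adjusted p = 0.854, edgeR's quasi-likelihood test). With the expected antisense counts subtracted, a step added after seeing the data, the log2 fold change of *Kcnq1* was -0.58 with an adjusted p of 0.0361. Across the 14 other settings its adjusted p ran from 0.0150 to 0.684. *Cftr* and *Atp1b1* also share exon bases with genes of the opposite strand, 129 with *Gm15592* and 575 with *Nme7*. The part of these genes in the *Cftr* and *Atp1b1* counts was not tested.

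*Kcne2* (ENSMUSG00000039672, chromosome 16, 92292389 to 92298129, plus strand), the accessory subunit, was near the detection floor. Affected replicates 1, 3, 4, 5 and 6 had 5, 5, 2, 3 and 6 counts. Unaffected replicate 14 had 5 counts, replicate 22 had 2, and the other unaffected mice had 3 each. The gene did not pass the filter on low counts and was not tested. Summed over mice, 21 counts in affected and 22 in unaffected mice gave 0.197 CPM of the summed library totals (95% exact Poisson interval 0.122 to 0.300) and 0.169 (0.106 to 0.255), intervals that cover counting error only. A difference was not detectable at this depth.

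*Kcne3* and *Kcne4*, other accessory subunits of the KCNE family, had more counts than *Kcne2*. *Kcne4* stood at 0.830 ± 0.301 FPKM (SD, n = 5) in affected and 0.764 ± 0.218 FPKM (SD, n = 7) in unaffected mice. *Kcne3* stood at 0.729 ± 0.665 and 0.698 ± 0.361 FPKM, and its highest value, 1.89 FPKM, came from affected replicate 3. *Kcne1* was at or near the floor in both groups, with 0 to 1 counts in affected and 0 to 3 in unaffected mice, and was not tested. Its highest value, 0.174 FPKM in unaffected replicate 26, rested on 3 counts. Of the 10 KCNQ and KCNE genes, 7 were tested and *Kcnq1* alone passed, beside 13.7% of all genes tested.

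*Ano1* (ENSMUSG00000031075) lies on the minus strand of chromosome 7, from 144588549 to 144751974, and 1161506 bases separate it from *Kcnq1*. Its level was 32.8, 25.5, 43.9, 33.9 and 38.1 CPM in affected replicates 1, 3, 4, 5 and 6. In unaffected mice the lowest was 19.7, the median 28.9 and the highest 40.9 CPM. The groups overlapped, with 4 of 5 affected mice inside the unaffected range. The log2 fold change was 0.18 (SE 0.18, adjusted p = 0.558, edgeR's quasi-likelihood test). Affected replicate 1, among the lowest for *Kcnq1* and *Pax8*, held rank 6 of 12 for *Ano1*, counted from the lowest.

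Of the 10 anoctamins, 7 were tested, and *Ano9* was the sole gene to pass, beside 13.7% of all genes tested. It stood at 3.27 to 5.41 CPM in affected mice and 8.55 to 11.01 CPM in unaffected mice, and the groups did not overlap, as for 7.14% of genes tested. Its log2 fold change was -1.14 (SE 0.13, adjusted p = 0.000171, edgeR's quasi-likelihood test). *Ano6*, a phospholipid scramblase, and *Ano10* had log2 fold changes of 0.05 and 0.01, each with an SE below 0.1. The median of the family was 0.01, the same as over all genes.

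*Cftr* (ENSMUSG00000041301, chromosome 6, 18170687 to 18322768, plus strand) varied widely among affected mice. Affected replicates 1, 3, 4, 5 and 6 had 4.80, 17.0, 19.02, 14.4 and 9.36 CPM. Unaffected mice had a lowest value of 8.35, a median of 13.0 and a highest of 18.1 CPM. Affected mice thus held the lowest and the highest value of the 12, and the coefficient of variation was 44.9% in affected and 23.8% in unaffected mice. The estimate was -0.06 on the log2 scale (SE 0.29, adjusted p = 0.922, edgeR's quasi-likelihood test), and without affected replicate 1 it was 0.15. None of the 9 tested genes of 11 CFTR scaffold and regulator genes passed, with log2 fold changes from -0.27 for *Slc9a3r2*, a scaffold protein, to 0.99 for *Prkar2b*, a regulatory subunit of protein kinase A (SE 0.41, adjusted p = 0.130, edgeR's quasi-likelihood test).

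*Clcn5* (ENSMUSG00000004317, chromosome X, 7153810 to 7319358, minus strand) had the smallest span of the 6 genes, with the highest of the 12 mice at 1.59 times the lowest. Its level was 48.1, 64.1, 74.3, 69.5 and 46.6 CPM in affected replicates 1, 3, 4, 5 and 6. The lowest unaffected value was 53.2, the median 60.5 and the highest 67.0 CPM. Affected mice lay on either side of the unaffected range, with 2 below it and 2 above it. The log2 fold change was 0.03 (SE 0.12, adjusted p = 0.914, edgeR's quasi-likelihood test). None of the 8 tested of 11 CLC family genes passed, and their log2 fold changes ran from -0.18 to 0.25. *Clcn3* and *Clcn4*, the closest relatives of *Clcn5*, had values of 0.12 and 0.12 with an SE of 0.07 each.

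*Atp1b1* (ENSMUSG00000026576, chromosome 1, 164437109 to 164458355, minus strand), the beta subunit of the sodium pump, was the most abundant member. Affected replicates 1, 3, 4, 5 and 6 had 356, 694, 997, 780 and 548 CPM. Unaffected mice had a lowest value of 651, a median of 727 and a highest of 898 CPM. Replicates 1 and 6 lay below every unaffected mouse and replicate 4 above, and the SD was 242 CPM (n = 5) in affected against 103 CPM (n = 7) in unaffected mice. The estimate was -0.15 on the log2 scale (SE 0.20, adjusted p = 0.671, edgeR's quasi-likelihood test), and without affected replicate 1 it was 0.01. Of the 15 sodium-potassium ATPase and FXYD genes, 13 were tested and none passed. The median of that list was 0.26, above the 0.01 of all genes, and *Atp1b3*, another beta subunit, had a log2 fold change of 0.11 (SE 0.08).

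**Figure D4:**
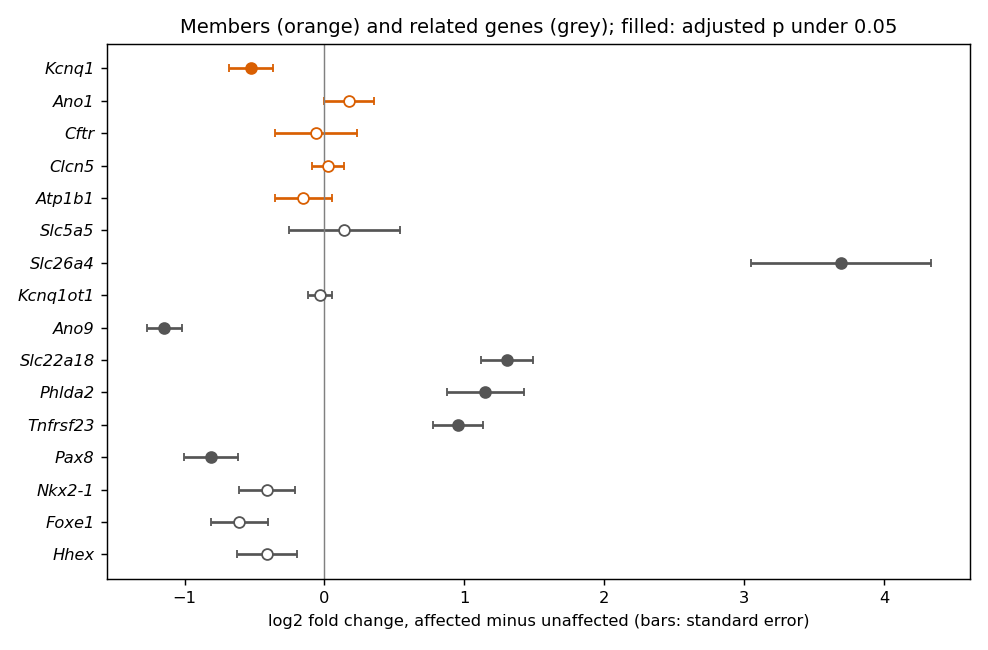
Log2 fold change (affected minus unaffected) with its SE for the 5 tested members (orange) and related genes (grey), where filled points passed an adjusted p of 0.05. *Kcnq1* at -0.52 is the filled orange point, and *Kcnq1ot1* sits at -0.03. *Slc26a4* at 3.69 is the farthest from 0, and it passed the filter on low counts through the affected mice.

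Partner genes of the same complex or step were compared by their ratio of FPKM within each mouse. *Kcne2* over *Kcnq1* was tested by exact permutation (two-sided, every split of the mice) with Benjamini-Hochberg adjustment over the 3 ratios computed, and the smallest p possible was 0.00126. It had a log2 ratio of -3.95 ± 0.93 (SD, n = 5) in affected and -4.70 ± 0.65 (SD, n = 7) in unaffected mice, and the groups overlapped. The difference of 0.75 had an exact permutation p of 0.139, adjusted 0.139, and rested on the few *Kcne2* counts given above. It also carries the lower *Kcnq1* of affected mice in its denominator. Mean *Kcne2* was 0.121 FPKM in affected and 0.114 FPKM in unaffected mice. *Ano1* over *Slc26a4* could be formed in 10 mice, because *Slc26a4* was listed at 0 in unaffected replicates 14 and 22, which were dropped. Its log2 ratio was 4.67 ± 1.31 (SD, n = 5) in affected and 7.81 ± 1.45 (SD, n = 5) in unaffected mice. These values, 2.81 to 5.96 against 6.02 to 9.45, are given as a description with no test, because the unaffected ratios rest on 1 to 6 *Slc26a4* counts per mouse and restate how few counts that gene had.

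**Figure D5:**
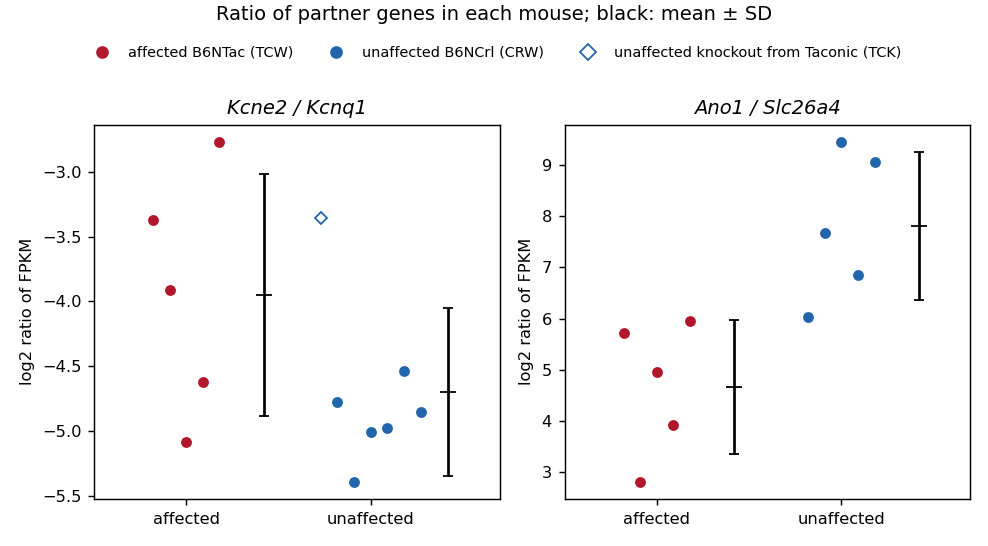
Log2 ratio of FPKM of *Kcne2* over *Kcnq1* and of *Ano1* over *Slc26a4* in each mouse, with the mean and SD per group. *Ano1* over *Slc26a4* is drawn for the 5 affected mice and for the 5 unaffected mice in which it could be formed, where it rests on 1 to 6 *Slc26a4* counts, and *Kcne2* over *Kcnq1* overlaps between groups.

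*Slc26a4*, which encodes pendrin, had 14, 77, 28, 51 and 11 counts in affected replicates 1, 3, 4, 5 and 6. In the 7 unaffected mice it had between 0 and 6 counts, which is at or near the floor of 3 counts. Summed over mice it stood at 1.69 CPM of the summed library totals (95% exact Poisson interval 1.46 to 1.96) in affected and 0.123 (0.0701 to 0.199) in unaffected mice. The fitted log2 fold change was 3.69 (SE 0.64, adjusted p = 0.00301, edgeR's quasi-likelihood test), a value that depends on how low counts are moderated, and the gene passed the filter on low counts through the affected mice. *Slc26a4* was higher in 5 of 5 affected mice than in any unaffected mouse, and 7.14% of genes tested did not overlap between groups in CPM. It remained low per length, at 0.177 to 1.13 FPKM in affected mice.

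Of the 8 iodide and related anion carriers, all were tested and *Slc26a4* alone passed, beside 13.7% of all genes tested. Because *Slc26a4* passed the filter on low counts through the affected mice, its call is not read as a result about the list. *Slc5a5*, the symporter that the channels and the pump support, stood at 6.94, 18.1, 17.9, 13.2 and 10.5 CPM in affected replicates 1, 3, 4, 5 and 6. Unaffected mice ranged from 5.52 over a median of 10.4 to 27.7 CPM, the highest being replicate 23, the library with the high *Muc5b* count. Its log2 fold change was 0.14 (SE 0.40, adjusted p = 0.851, edgeR's quasi-likelihood test). None of the 9 hormone synthesis genes passed. Of these *Duox1* and *Duoxa2*, which serve hydrogen peroxide production, had the largest estimates at 0.93 (SE 0.31) and -0.77 (SE 0.28), with adjusted p of 0.0641 and 0.0909 in edgeR's quasi-likelihood test.

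The imprinted domain around *Kcnq1* held genes that moved in the opposite direction. Of its 15 listed genes, 12 were tested and 3 passed, all higher in affected mice, beside 7.63% of all genes tested that were higher. *Slc22a18*, which encodes a membrane transporter, rose from at most 2.31 CPM in unaffected mice to 3.25 to 5.33 CPM in affected mice (log2 fold change 1.31, SE 0.19, adjusted p = 0.000949, edgeR's quasi-likelihood test). *Tnfrsf23*, a decoy receptor, rose from 1.30 to 2.65 CPM to 3.19 to 4.50 CPM (log2 fold change 0.95, adjusted p = 0.00467 in edgeR's quasi-likelihood test). Neither gene's groups overlapped, as for 7.14% of genes tested. *Phlda2*, a regulator of placental growth, was below 2.1 CPM in every mouse, with a log2 fold change of 1.15 (adjusted p = 0.0168 in edgeR's quasi-likelihood test), and its call was lost without affected replicate 3 (adjusted p = 0.0510) and in limma on log2(FPKM + 1) without a filter (adjusted p = 0.0533). Allele-specific expression was not measured, and *Cdkn1c*, a cell cycle inhibitor of the same domain, had a log2 fold change of 0.54 (SE 0.24, adjusted p = 0.164, edgeR's quasi-likelihood test).

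The transcript length implied by the tables, which is the ratio of count to FPKM for a given library total, was taken as a readout of which transcripts were weighed. None of the 4 members with at least 100 counts in every mouse passed in limma, beside 0.495% of the 9084 genes tested. The implied length of *Atp1b1* was 2472 ± 26.9 bases (SD, n = 5) in affected and 2454 ± 16.4 bases (SD, n = 7) in unaffected mice. *Cftr* had the largest estimate of the 4, with 5631 ± 265 against 5902 ± 265 bases, a difference of -4.59% (limma, adjusted p = 0.486). *Kcnq1*, with fewer counts, had 2525 ± 359 against 2417 ± 204 bases, and at a minimum of 30 counts its adjusted p in limma was 0.898.

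Genes whose log2 CPM followed each tested member most closely over the 12 mice are given as a description, since the mice share libraries, depth and tissue makeup. *Kcnq1* was followed by *Slc16a11*, a transporter of the monocarboxylate family (Pearson r = 0.96), and by *Ager*, the receptor for advanced glycation end products (r = 0.95), which was itself lower in affected mice at -1.13 on the log2 scale. *Clcn5* was followed by *Cpq* (r = 0.98), a peptidase, and *Kcnk1* (r = 0.96), a potassium channel, and *Atp1b1* by *Elovl7* (r = 0.97), a fatty acid elongase, and *Afdn* (r = 0.96), a protein of cell junctions. *Cftr* was followed by *Pbrm1* (r = 0.94), a subunit of a chromatin remodeller, and 1810019D21Rik (r = 0.93). The values were lower for *Ano1*, with 4930481A15Rik at r = 0.87 and *Ephb1*, an ephrin receptor, at r = 0.83.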

How the data were processed

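RNA sequencing of the thyroid of 12 mice, 5 affected and 7 unaffected, was taken up at the gene tables, 1 library per mouse. Libraries were depleted of ribosomal RNA, and the authors used OmicSoft Array Studio for alignment to GRCm38 and for quantitation with Ensembl gene models. They deposited estimated counts per gene, not normalized, and FPKM values, which the authors scaled by transcript length and total. Whether counting used the strand is not given in the sources used here. Nothing in the labels links the libraries to batches, and no 2 libraries held identical values.

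Estimated counts were rounded, filtered with filterByExpr (minimum count 10), scaled by TMM and compared between affected and unaffected mice by the robust quasi-likelihood test of edgeR 4.0.16 in R 4.3.3, with Benjamini-Hochberg adjustment over 19661 genes and a threshold of 0.05. SE was derived from the log2 fold change and its F statistic. CPM are on the TMM scale. The implied transcript length was tested with limma 3.58.1 in genes with several transcripts whose count reached 100 in each mouse. The FPKM ratio of *Kcne2* over *Kcnq1* was compared by exact permutation. Exons and overlaps came from GENCODE M21. In simulated counts for this comparison over 19661 genes, recovery was 62% for 2-fold and 84% for 4-fold changes.

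The members, the 9 lists of related genes and the 15 marker lists were chosen with earlier results of these data known. Genes named are the 6 members, *Slc5a5*, *Slc26a4*, *Kcnq1ot1*, the 4 lineage factors, at most 4 genes past the threshold per list of related genes, and for each member the 2 genes (average log2 CPM of at least 1) with the highest Pearson r. Other genes named as examples (*Kcne1*, *Kcne3*, *Kcne4*, *Ano6*, *Ano10*, *Slc9a3r2*, *Prkar2b*, *Clcn3*, *Clcn4*, *Atp1b3*, *Duox1*, *Duoxa2*, *Cdkn1c*) were chosen after their values were seen. Alternatives were DESeq2 1.42.0, other scalings (library totals, totals without *Tg*, upper quartile, lineage factors), other filters, B6NCrl mice as sole controls, limma on FPKM with a pseudocount of 1 or 0.1 (log2 scale), *Xist* as a covariate and leaving out each mouse. A ratio and some named genes are not reported here.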

Additional observations from a re-analysis of the deposited data

Results flagged for a closer look

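A mouse was set apart where its gap to the nearest mouse of its group, divided by the range of the group, passed Dixon's 95% critical value. Of 30 groups examined for the members, their partners and the ratios, 2 held such a mouse, and chance sets apart about 1 in 20 groups. *Kcne2* in unaffected replicate 14 stood at 0.417 CPM, above the next unaffected mouse at 0.170 CPM, and rested on 5 counts in the library with the lowest total. The same mouse had a log2 ratio of *Kcne2* over *Kcnq1* of -3.35, above the next at -4.54.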

How the results depend on the processing

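No paired analysis was possible because the replicate numbers in the labels are not shared between affected and unaffected mice.

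With DESeq2, 10 related genes passed in place of 6, where the main fit tested 73 of them and 13.7% of all genes passed. The share of all genes passing in the other settings, fits with a mouse left out among them, is not given here. Counts of genes passing in this section are therefore not read as results about the lists. Scaled to the lineage factors, which moved the median of all genes to 0.68, 37 related genes passed and the members passing were 3 higher and 0 lower. In that scaling log2 fold changes were 0.092 for *Kcnq1*, 0.86 for *Ano1*, 0.46 for *Cftr*, 0.64 for *Clcn5*, 0.41 for *Atp1b1*, 0.64 for *Kcnq1ot1*, 0.15 for *Nkx2-1* and 0.17 for *Hhex*. Relative to the shifted median, *Kcnq1* was at -0.59, *Ano1* at 0.17, *Cftr* at -0.22, *Clcn5* at -0.05 and *Atp1b1* at -0.28. Library totals without *Tg* moved the median to -0.13 and gave -0.10 for *Clcn5*. *Clcn5* was also -0.021 with upper-quartile factors and -0.0096, -0.0125 and -0.0096 in the 3 FPKM fits.

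*Kcnq1* kept its direction but not its call without a filter on low counts (-0.53, adjusted p = 0.0738), with *Xist* as a covariate (-0.53, adjusted p = 0.0539) and without unaffected replicates 14 and 21 (-0.59, adjusted p = 0.0508, chosen after seeing the data), and in each of these 3 fits 0 members passed (edgeR's quasi-likelihood test). *Cftr* was 0.00074 with B6NCrl mice as sole controls and 0.0010 without replicates 14 and 21, where *Slc5a5* was -0.040. Over log2(FPKM + 0.1), the ratio *Kcne2* over *Kcnq1* differed by 0.66, with an adjusted exact permutation p of 0.0417. The added 0.1 is about as large as the *Kcne2* median of 0.0955 FPKM and damps that gene. This p is therefore not separate from the *Kcnq1* result. The cause of the other changes was not tested.

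With each mouse left out, 0 to 1 members were lower and 0 higher, and 5 to 12 related genes passed. Log2 fold changes ran from -0.62 to -0.41 for *Kcnq1*, 0.09 to 0.28 for *Ano1*, -0.22 to 0.15 for *Cftr*, -0.041 to 0.11 for *Clcn5*, -0.32 to 0.0098 for *Atp1b1* and -0.10 to 0.019 for *Kcnq1ot1*. Differences ran from 0.45 to 1.03 for *Kcne2* over *Kcnq1*. No member passed for implied length in any fit with a mouse left out. Depth limits *Kcne2*, with 2 to 6 counts per mouse, and the precision of *Kcnq1*, with 65 to 140.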
